A study of Mus musculus with 2 samples.

Results

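The S100 genes encode small calcium-binding proteins, and 10 of them (S100a3, S100a4, S100a6, S100a7a, S100a8, S100a9, S100a10, S100a11, S100a14 and S100a16) were followed in newborn mouse skin with and without Pnpla1, a lipase-family gene known for its role in acylceramide synthesis for the skin barrier. The members were the array probes for genes, not controls, that carry these gene symbols, which gave 12 probes with 1 spot each, for 10 of the 30133 genes on the array. Skin RNA was taken at birth (postnatal day 0) from C57BL/6N mice of the genotypes Pnpla1+/+ (wild type) and Pnpla1-/- (knockout), and the RNA of 6 animals per genotype was pooled in equal amounts and hybridized to 1 Agilent mouse array per genotype with the dye Cy3. The labels call the tissue skin, whereas the description of the series speaks of epidermis. According to the study's methods, both genotypes came from the same litters, born to heterozygous parents. The targeted allele was of the knockout-first type (tm1a), and flippase had cut out its lacZ and neomycin cassettes. No tissue-restricted Cre and no agent is described for the Pnpla1-/- mice, and the labels call them knockouts.

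With 1 array per genotype there were no replicates, and no test between the genotypes was possible. Each difference therefore describes these 2 pools. An intensity is the background-subtracted brightness of a spot as deposited, and a scaled intensity is that value divided by the 75th percentile of its array, which was 2108 for Pnpla1+/+ and 1734 for Pnpla1-/-. A log2 difference is Pnpla1-/- minus Pnpla1+/+ after this scaling, and a fold is its linear form. The 2 arrays had 71.7% and 73.3% of their spots well above background, and none was saturated. The scanner's error model gave an error of 10% for a typical spot, which amounts to 0.20 for a log2 difference and covers neither the animals nor the hybridization. In 309 probes printed in at least 8 spots, the median SD of a difference between spots was 0.04. Brightness depends on the probe, so that differences were taken between the arrays for each gene. The brightest gene of a list and a list's summed scaled intensity describe probe signals and do not order the genes by RNA level.

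S100 proteins bind calcium through a pair of EF-hand loops, usually as dimers, and then attach to target proteins inside the cell. Several are also released and act on surface receptors of other cells. In skin, most S100 genes lie together in the epidermal differentiation complex, beside the genes for cornified envelope proteins. S100a8 and S100a9, whose products form calprotectin, a metal-binding antimicrobial complex, are known from neutrophils and monocytes and from keratinocytes of wounded or inflamed epidermis.

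The kinship of these genes can be read in part from the array probes. The array probes for S100a8, S100a6, S100a4 and S100a1 (the last a relative outside the 10 members) reach into the code for the second calcium-binding loop, and are shown because the family likeness can be seen in them. The capitals mark the run TTCNAGGAGT, where N is any base, which is the run of 10 bases with 1 open position that the most S100 genes shared, a search made after the data were seen. It was found in 4 of the 23 probes of the S100 family and in 17 of all 39429 probes on the array (0.0431%). The probes map to chr3:90473778-90473837 for S100a8, chr3:90418160-90418219 for S100a6, chr3:90409734-90409793 for S100a4 (all on the plus strand) and chr3:90315191-90315250 for S100a1 (minus strand) in the mouse build mm9.
S100a8: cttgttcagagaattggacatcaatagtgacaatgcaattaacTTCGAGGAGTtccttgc
S100a6: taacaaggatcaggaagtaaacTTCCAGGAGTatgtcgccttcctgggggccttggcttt
S100a4: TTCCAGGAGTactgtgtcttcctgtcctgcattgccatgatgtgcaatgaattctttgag
S100a1: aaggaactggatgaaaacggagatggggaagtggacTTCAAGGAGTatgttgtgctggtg

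Outside such short runs the probes were distinct. The S100a8 probe shared at most 7 consecutive bases with a probe of another S100 gene, the S100a9 and S100a3 probes 8, and the S100a7a probe 9. S100a4 and S100a6 shared 11 bases. The exception was S100a11, whose probe shared 19 consecutive bases with that of its processed copy S100a11-ps on chromosome 12, so that the signals of this pair may not be separate.

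Pnpla1 was examined first as a check of the labels. Its probe (chr17:29026908-29026967, mm9) read 579 on the wild-type array and 114 on the knockout array, which gives a log2 difference of -2.07. The array labelled Pnpla1-/- was the lower one, although its signal there remained well above background.

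Of the 10 S100 genes, 3 were at least 2-fold higher in Pnpla1-/- skin (S100a7a, S100a8 and S100a9) and 1 was at least 2-fold lower (S100a3). Among all 22382 genes with a value, 6.70% were at least 2-fold higher (1499 genes), 3.04% were at least 2-fold lower (681 genes), and 9.74% passed 2-fold in either direction. The shares among the S100 genes were 30% and 10%. The median log2 difference of the 10 genes was 0.28, against 0.00 over all genes, and 6 of the 10 stayed under 2-fold. In whole tissue, fewer cells of a type and less RNA per cell cannot be told apart, and this holds for each value given here.

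**Figure D1:**
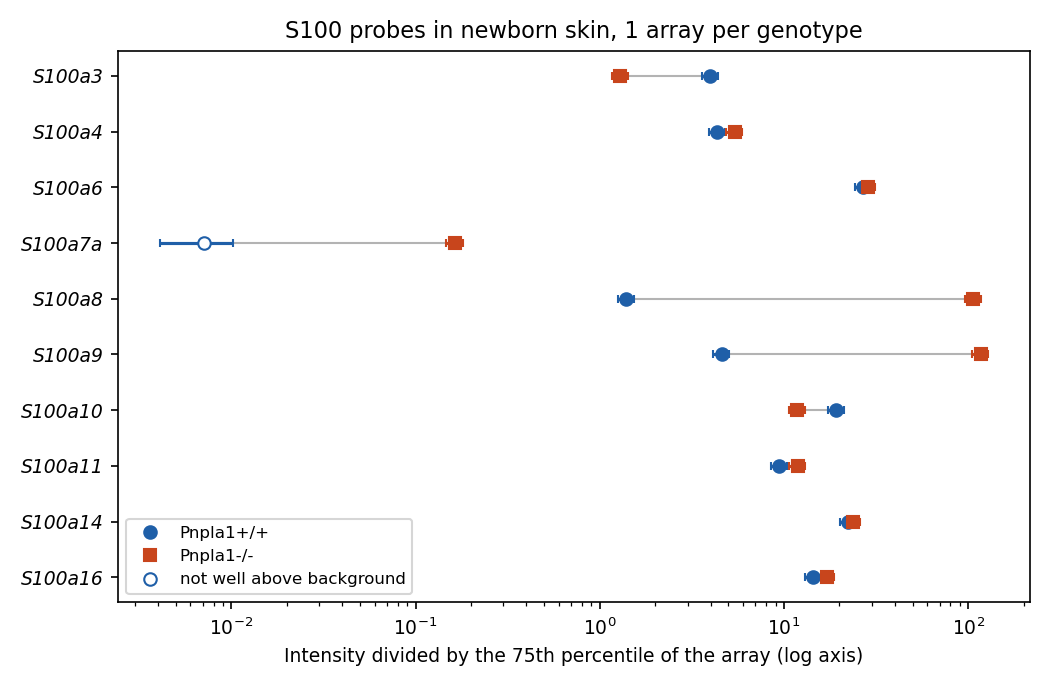
Scaled intensity (multiples of the 75th percentile of each array, log axis) of the 10 S100 genes in Pnpla1+/+ (blue circles) and Pnpla1-/- (red squares) skin, 1 array per genotype. Horizontal bars are the scanner's error and not a replicate error, the open symbol is not well above background, and the wide gaps are those of S100a7a, S100a8 and S100a9, with S100a3 and S100a10 lower in Pnpla1-/-.

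S100a8 and S100a9, the partners of calprotectin, had the highest differences of the 9 members that both arrays measured well above background. The S100a8 intensity went from 2929.7 ± 293 (scanner error) in Pnpla1+/+ to 185092 ± 18510 in Pnpla1-/- skin. After scaling it was 1.39 and 106.7, a log2 difference of 6.26 or 76.8-fold. Of the 20680 genes measured well above background on both arrays, 20 had a difference as high or higher, S100a8 included.

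The S100a9 probe (chr3:90496573-90496632, minus strand, mm9) read 9679 ± 968 in Pnpla1+/+ and 202863 ± 20290 in Pnpla1-/- skin. Its scaled intensity was 4.59 and 117.0, a log2 difference of 4.67 or 25.5-fold, and 48 of the same 20680 genes had a difference as high or higher. Both partners were thus far brighter on the Pnpla1-/- array, but not by the same factor. The difference of S100a8 exceeded that of S100a9 by 1.59 on the log2 scale, with a scanner error of 0.29. Over the 11 alternative ways of processing, S100a8 lay between 5.83 and 6.26 and S100a9 between 4.24 and 4.67.

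S100a7a, the mouse relative of human psoriasin and koebnerisin, was the only member that 1 array alone measured well above background. Its probe (chr3:90461922-90461981, mm9) read 15.0 ± 6.4 in Pnpla1+/+ skin, which was not well above background, and 284 ± 29.0 in Pnpla1-/- skin. S100a7a was therefore at least 14.4-fold higher in Pnpla1-/- skin. This bound was taken against the faintest signal that still counted as well above background on the wild-type array, or against the dim signal of the gene where that was higher. As a log2 value the bound was 3.85, and it was 2.11 after the normexp background correction. Where both arrays had to be well above background, S100a7a had no value.

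The 3 genes that rose lie next to each other. On chromosome 3, 12 S100 genes with a probe span 181.4 kb from the S100a1 to the S100a9 probe, with 0 probes of other genes between them. Counted from the S100a1 probe, S100a7a lies at 146.7 kb, S100a8 at 158.6 kb and S100a9 at 181.4 kb, the last 3 positions of this cluster. The neighbour before them, S100a6 at 103.0 kb, had a log2 difference of 0.08. S100a3, the member that fell, lies at 91.2 kb between S100a2 (-0.03) and S100a4 (0.31). S100a11 and S100a10 lie apart from the cluster, at 3015 and 3053 kb.

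Beyond S100a9, the next gene with a probe was Pglyrp4, an antibacterial peptidoglycan recognition protein, at 224.3 kb. It was dim on the wild-type array, at 53.8, and read 789.8 on the knockout array (log2 difference 4.16). The next features went the other way, with Gm5849 at 264.6 kb at least 18.8-fold lower and an unnamed probe (NAP061714-1) at 367.5 kb at least 43.5-fold lower in Pnpla1-/- skin. On the side of S100a1, Chtop, Snapin and Ilf2 had log2 differences of -0.27, -0.24 and -0.64. These 6 neighbours were picked after it was seen that no gene lay between the S100 genes.

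**Figure D2:**
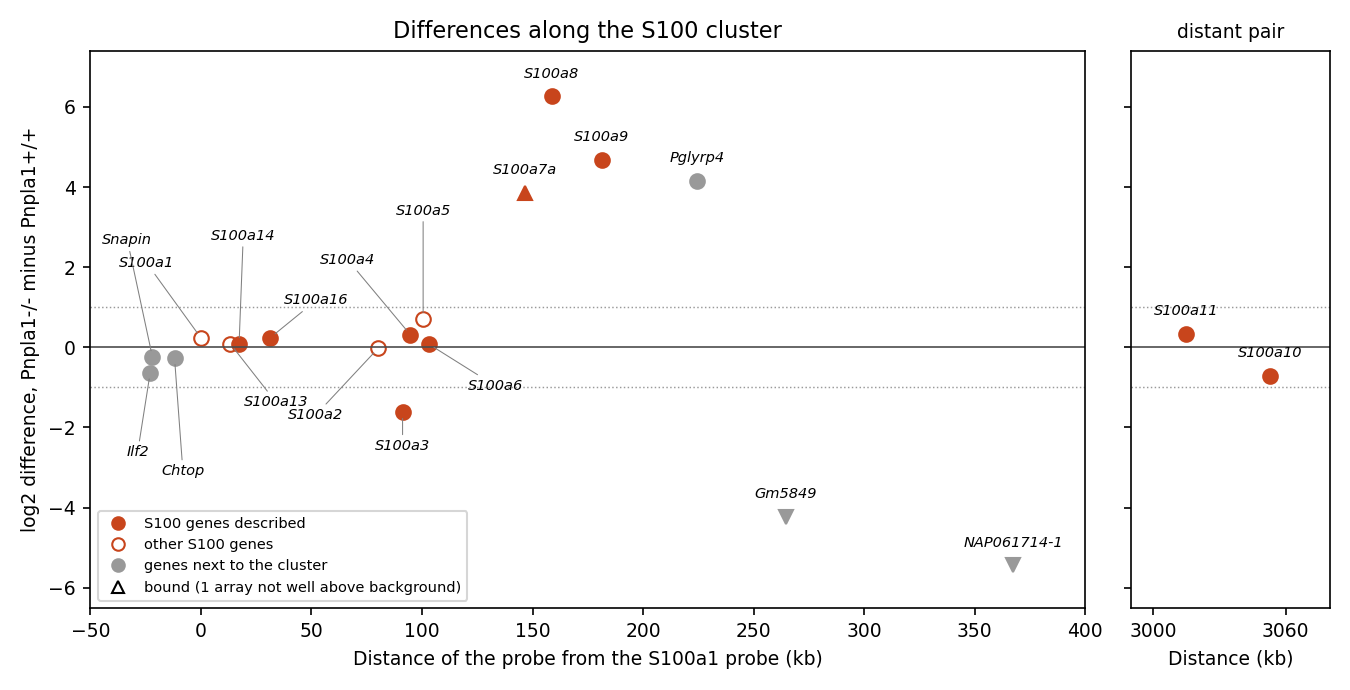
Log2 difference (Pnpla1-/- minus Pnpla1+/+) of each gene against the distance of its probe from the S100a1 probe in kb, for the 10 S100 genes (filled red), other S100 genes (open red) and the 3 nearest genes on each side (grey), with S100a11 and S100a10 in a separate panel. Triangles are bounds and dotted lines mark 2-fold, and the genes above the upper line are S100a7a, S100a8, S100a9 and Pglyrp4, which lie side by side.

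Because these 3 genes rose together, the sequence upstream of each is shown, from 250 bases before the annotated start to 30 bases into the transcript (RefSeq, GRCm38.p6). The windows are chr3:90668821-90669100 on the plus strand for S100a8, chr3:90695692-90695971 on the minus strand for S100a9 and chr3:90654052-90654331 on the plus strand for S100a7a. Capitals mark the letters of any of 5 motifs on either strand, namely AP-1 (TGANTCA), C/EBP (TTNNGNAA), NF-kappaB (by its consensus of 10 bases), STAT (TTCNNNGAA) and a TATA motif (TATAAA), the last of which was added after the sequences were seen. The motifs were searched in the full windows, which run to 50 bases after the start and which the table held for 8 of the 10 members, and the matches of S100a7a, S100a8 and S100a9 all begin within the stretches shown.
S100a8: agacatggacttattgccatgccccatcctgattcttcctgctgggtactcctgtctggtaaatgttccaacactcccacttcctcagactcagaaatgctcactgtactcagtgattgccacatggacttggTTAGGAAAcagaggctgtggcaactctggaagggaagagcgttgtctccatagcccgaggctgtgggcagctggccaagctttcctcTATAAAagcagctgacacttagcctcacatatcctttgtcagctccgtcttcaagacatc
S100a9: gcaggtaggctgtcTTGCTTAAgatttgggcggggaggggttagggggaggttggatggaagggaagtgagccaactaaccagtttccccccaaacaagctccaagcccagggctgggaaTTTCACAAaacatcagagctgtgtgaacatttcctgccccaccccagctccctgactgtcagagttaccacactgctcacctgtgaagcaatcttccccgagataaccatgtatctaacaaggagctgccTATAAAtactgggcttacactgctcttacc
S100a7a: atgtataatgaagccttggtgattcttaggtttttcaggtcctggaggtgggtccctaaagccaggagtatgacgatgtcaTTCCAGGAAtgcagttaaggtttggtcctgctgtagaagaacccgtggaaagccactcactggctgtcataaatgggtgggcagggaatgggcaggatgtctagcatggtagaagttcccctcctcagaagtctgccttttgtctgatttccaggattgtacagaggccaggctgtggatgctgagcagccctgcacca

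S100a8 had a C/EBP match beginning 117 bases before its start and a TATA match 30 bases before it. S100a9 had C/EBP matches 236 and 130 bases before its start, and its TATA match began at the annotated start itself. The C/EBP letters are common, however, since 40.7% of all 32851 promoter windows of this length held them, and S100a3, which fell, had matches too. These shares are per window, whereas a member could have more than 1 window, and the 8 members had 12. S100a3 had 4 windows, with C/EBP letters in windows 1 and 4 and TATAAA in window 3. Counted by window, C/EBP letters and TATAAA were each found in 4 of the 12. TATAAA was present in 13.6% of all windows and, among the 8 members with a window, in S100a3, S100a4, S100a8 and S100a9. S100a7a had a STAT match 169 bases before its start, a motif found in 8.3% of all windows and in no other of these 8. AP-1 letters were found in 7.81% of all windows and in S100a11 (136 and 38 bases before the start) and S100a16 (window 2 only). The 1 NF-kappaB form searched was found in 0.411% of all windows and in 0 of the 8 members. None of the matches in S100a7a, S100a8 and S100a9 overlaps another. A match is a string of letters and not a measured binding site.

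S100a3, a cysteine-rich protein of the hair cuticle, was the member that fell. Its probe (chr3:90406396-90406455, mm9) went from 8390.5 ± 839 in Pnpla1+/+ to 2243 ± 224 in Pnpla1-/- skin. Scaled, this was 3.98 and 1.29, a log2 difference of -1.62, or 3.08-fold lower in Pnpla1-/-. Under all 11 alternatives S100a3 was at least 2-fold lower, between -2.05 and -1.59, and 146 of the 20680 genes measured on both arrays were as low or lower.

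Of 14 other hair shaft and cuticle genes, 8 were at least 2-fold lower and 0 higher, with a median of -1.10, and their summed scaled intensity was 25.5 for Pnpla1+/+ and 13.6 for Pnpla1-/-. The count of lower genes was 6 with normexp, 9 with median scaling and without scaling, and 10 with spike-in centring. The 4 with the largest differences were the hair keratins Krt33a (-1.70), Krt34 (-1.66), Krt33b (-1.59) and Krt31 (-1.47), values close to that of S100a3. The brightest was the hair keratin Krt35, which went from 22090 to 7211. Padi3, the enzyme that citrullinates the S100A3 protein, had an intensity of 2981 and 1267, a log2 difference of -0.95, and was singled out for this role after its value was seen. The others that did not pass 2-fold, named here after their values were seen, were Msx2 (-0.71), Krt82 (-0.50), Krt81 (-0.24), Krt85 (-0.18, and -0.66 as a mean over its 3 probes) and Foxn1 (0.52). All 14 were well above background on both arrays, and the part of hair follicle content in the S100a3 result was not tested.

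S100a10, which binds annexin A2 and differs from its relatives in that it no longer needs calcium, was the other member to read lower. Its probe (chr3:93368437-93368496, mm9) went from 40671 ± 4067 in Pnpla1+/+ to 20405 ± 2041 in Pnpla1-/- skin. The scaled intensity was 19.3 and 11.8, a log2 difference of -0.71, or 1.64-fold lower in Pnpla1-/-. This is under 2-fold but beyond 2 scanner errors, as were the differences of S100a3, S100a8 and S100a9. Centring on the spike-in RNA took S100a10 to -1.14, the only one of 11 alternatives in which it passed 2-fold. Anxa2, which encodes its binding partner, had an intensity of 143300 and 120000 and a log2 difference of 0.03.

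The remaining 5 members were bright on both arrays and differed by less than 2 scanner errors. S100a11, a partner of annexin A1 that is also built into the cornified envelope (chr3:93330022-93330081, mm9), read 19843.5 for Pnpla1+/+ and 20564 for Pnpla1-/- (log2 difference 0.33, 1.26-fold). Its processed copy S100a11-ps gave 0.32, with the shared bases noted above. S100a4, known from fibroblasts and leukocytes and a partner of non-muscle myosin, had a brighter probe (chr3:90409908-90409967, mm9) with 9176 and 9383, a log2 difference of 0.31, and the probe printed above with 5745 and 5399.8, a log2 difference of 0.19. Both S100a4 probes thus read slightly higher in Pnpla1-/- after scaling.

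S100a16 and S100a14 are epithelial members whose products bind each other. The brighter S100a16 probe (chr3:90346875-90346934, mm9) had an intensity of 30518 and 29616, a log2 difference of 0.24, and the second probe (chr3:90346529-90346588, mm9) gave 0.21. S100a14 (chr3:90332439-90332498, mm9) had 46943 and 41012, a log2 difference of 0.09. S100a6, or calcyclin, a protein of dividing cells that binds the ubiquitin ligase adaptor Cacybp, had 56666 and 49319.8 with the probe printed above, a log2 difference of 0.08.

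The sign of these 5 small differences depended on the scaling. All 5 were below 0 when the arrays were centred on the spike-in RNA, from -0.35 for S100a6 and -0.34 for S100a14 to -0.19 for S100a16, -0.12 for S100a4 and -0.10 for S100a11. Without scaling, S100a6, S100a14 and S100a16 were also below 0 (-0.20, -0.20 and -0.04), and with quantile normalization S100a6 and S100a14 were (-0.14 and -0.07). Spike-in centring moved the median of all genes by -0.44, so that relative to that median the 5 genes were not low.

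**Figure D3:**
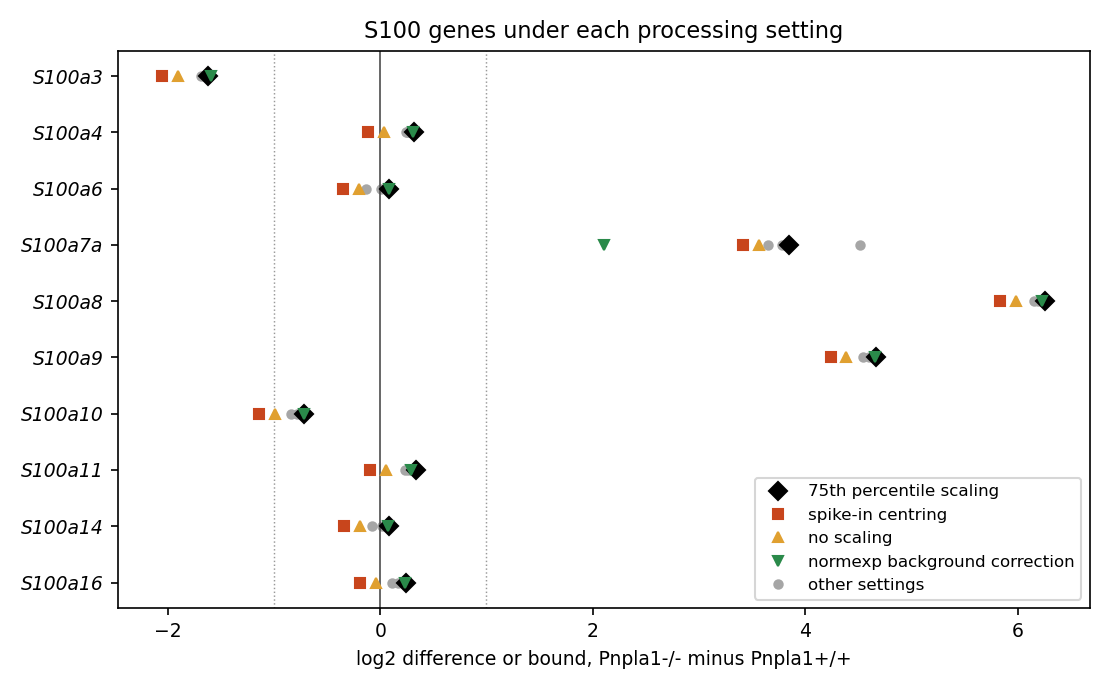
Log2 difference or bound (Pnpla1-/- minus Pnpla1+/+) of the 10 S100 genes under the scaling used here (black diamonds) and under the alternatives, 11 for each gene but S100a7a, which had 10. Dotted lines mark 2-fold, S100a3, S100a7a, S100a8 and S100a9 stay beyond them throughout, S100a10 crosses under spike-in centring only, and the other 5 lie on both sides of 0.

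A further 9 S100 genes had a probe, and 0 passed 2-fold in either direction, with 1 (S100z) at least 2-fold lower without scaling, with quantile normalization, with spike-in centring and with dim probes kept. Of these, 8 had a value, with a median of 0.11 that was -0.17 without scaling and -0.32 under spike-in centring. S100a5, at 100.5 kb of the cluster, had a log2 difference of 0.72 with a scanner error of 0.25 at low intensities of 65.2 and 88.1. S100a1 read 954 and 923 (0.23, and 0.30 with the probe printed above), S100a13 read 4613 and 4033 (0.09), and S100a2 read 112 and 90.6 (-0.03, with a scanner error of 0.25, and 0.14 after normexp). S100b, a marker of Schwann cells and melanocytes, read 505 and 456 (0.14), and S100g, which encodes calbindin-D9k, read 44.4 and 37.9 (0.05). S100z was not well above background in Pnpla1-/- skin and was at least 1.73-fold lower there, and neither array measured S100a7l2 well above background. Under spike-in centring, S100a5 was the only one of the 8 that stayed above 0. S100pbp, a binding protein outside the family, had a log2 difference of -0.20 with its brightest probe and 0.21 and -0.14 with the others. Over the 19 family members with a probe, 3 were at least 2-fold higher and 1 lower, all of them among the 10 members.

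The fused-type S100 genes encode long proteins that begin with an S100 domain, and they went in both directions. Of 6 with a probe, 1 was at least 2-fold higher and 2 were at least 2-fold lower, with a median of -0.62. Rptn (repetin) rose from 603 in Pnpla1+/+ to 19050 in Pnpla1-/- skin (log2 difference 5.26). Flg2 (filaggrin-2) went from 20470 to 198 (log2 difference -6.41). The 2 extreme members of this list thus differed by amounts like that of S100a8, in opposite directions. Tchhl1 (-1.27) was the other gene to fall, Crnn had -0.77 and the brightest, Tchh, had -0.48. Without scaling and under spike-in centring 3 were at least 2-fold lower, Crnn among them.

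Among receptors and adaptors reported for released S100 proteins, 3 of 9 were at least 2-fold higher and 0 lower. They were Tlr4 (1.08), the receptor of S100A8 and S100A9, its adaptor Myd88 (1.06) and its co-receptor Cd14 (1.02), while Ly96, the other co-receptor, was at 1.0, just under 2-fold. Tlr4 itself was dim, with 126 in Pnpla1+/+ and 219 in Pnpla1-/- skin. Ager, the receptor for advanced glycation end products, which was singled out after its value was seen, had -0.09. Alcam, also named after its value was seen, went the other way, from 2526 in Pnpla1+/+ to 1122 in Pnpla1-/- skin (-0.89). In all, 5 of the 9 were above 0 and 4 below. The brightest, Mcam, had 0.39, and 0.00 as a mean over its 2 probes. This count of 3 was 2 with the 75th percentile that left out dim probes, 1 with median scaling and 1 with normexp. It was 0 without scaling and under spike-in centring, where 1 gene (Alcam) was at least 2-fold lower.

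The binding partners of S100 proteins include annexins and cytoskeletal proteins. Of 10, 0 were at least 2-fold higher or lower, with a median of 0.02 and a summed scaled intensity of 186.7 and 186.8. The median was -0.26 without scaling and -0.41 under spike-in centring. With dim probes kept, 1 of them (Plg) was at least 2-fold higher. By their brightest probes, the largest were Anxa6 (-0.38), Plat (-0.31), Cacybp (-0.21) and Plg. Plg was not well above background in Pnpla1+/+ skin and was at least 1.64-fold higher in Pnpla1-/-. Myh9, a non-muscle myosin named here after its values were seen, had 0.14, and 0.43 as a mean over its 2 probes. Of the phagocyte NADPH oxidase, to which S100A8 and S100A9 deliver arachidonic acid, the subunit genes Ncf4, Ncf1 and Cybb had log2 differences of 1.94, 1.70 and 1.5. Rac1, the brightest of the oxidase genes, had 0.39. Rac2 (0.855) and Cyba (0.784), named here after their values were seen, also stayed under 2-fold.

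Of 14 cytokines known to induce S100a8 and S100a9 in keratinocytes, 8 were at least 2-fold higher and 0 lower, with a median of 2.76. Il1f6 (Il36a) was the brightest, going from 3308 in Pnpla1+/+ to 44730 in Pnpla1-/- skin (log2 difference 4.04). Il1a had 3.76, Il1f9 (Il36g) had 2.94, and Il17c, not well above background in Pnpla1+/+ skin, was at least 20.4-fold higher. The 6 that did not pass 2-fold, named here after their values were seen, were Il1f8 (0.96), Osm (0.95), Il22 (0.93), Il24 (0.83), Il17f (0.71) and Il17a, which was not well above background in Pnpla1+/+ skin and had a bound of at least 1.45-fold. The count was 8 under each alternative that kept all 14 genes, while the median was 1.996 after normexp.

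**Figure D4:**
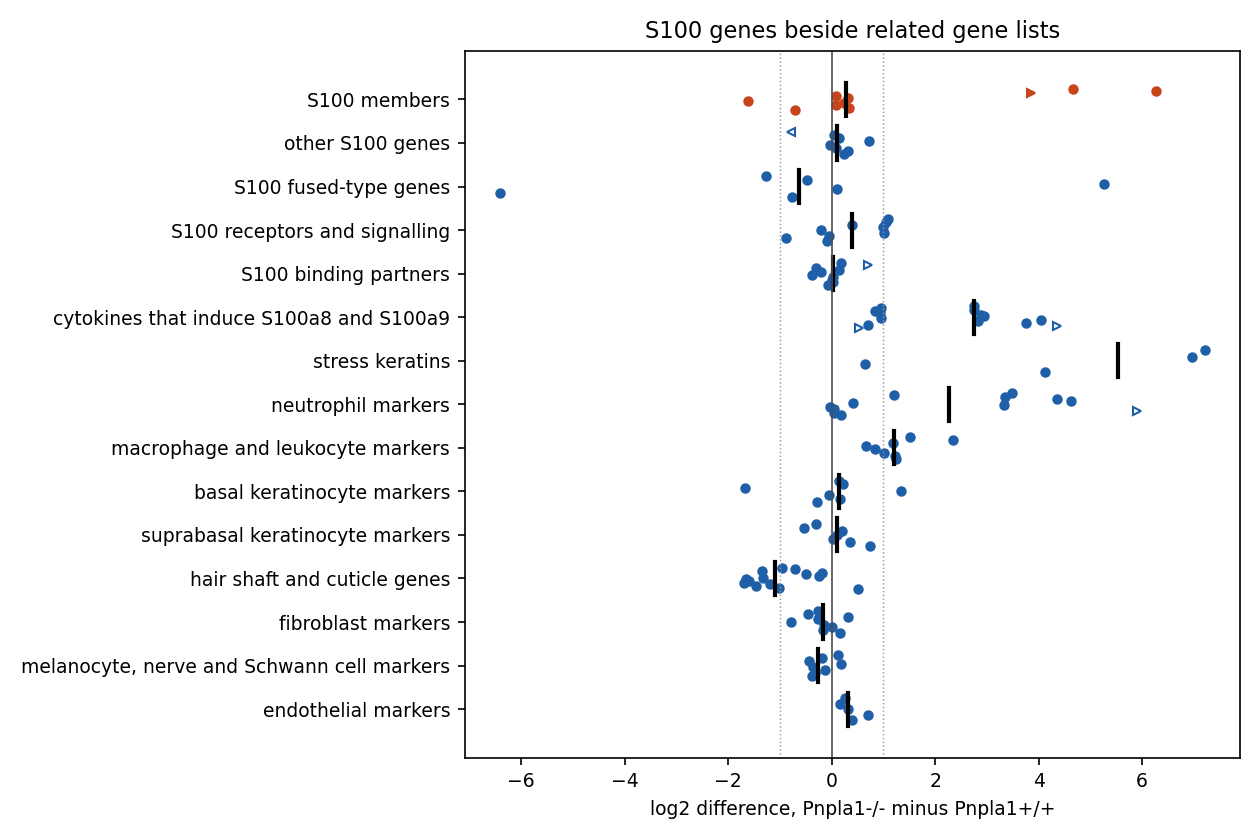
Log2 differences (Pnpla1-/- minus Pnpla1+/+) of the S100 genes and of related gene lists (points, with triangles for bounds), with the list median as a black bar and 2-fold as dotted lines. The medians were 0.28 for the 10 S100 genes (red), 5.54 for stress keratins, 2.76 for inducing cytokines, 2.27 for neutrophil markers and -1.10 for hair shaft and cuticle genes.

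Markers of the cells that can hold S100a8 and S100a9 RNA were read in the same arrays. The stress keratins of activated epidermis had 3 of 4 genes at least 2-fold higher, with Krt6b at 7.21, Krt6a at 6.96 and Krt16 at 4.13, while Krt17, the fourth, had 0.65. Their summed scaled intensity was 45.5 for Pnpla1+/+ and 411.4 for Pnpla1-/-, and Krt16 alone read 21190 and 304300.

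Of 12 neutrophil markers, 7 were at least 2-fold higher and 0 lower. Their median of 2.27 lies in a gap between Prtn3 (1.21) and Ltf (3.33), and it was 1.5 after the normexp background correction and 1.21 over the 11 genes that both arrays measured well above background, which leaves out Cxcr2. Cxcr2, the chemokine receptor of neutrophils, was not well above background in Pnpla1+/+ skin and was at least 59.8-fold higher in Pnpla1-/-. Mmp8, a collagenase of neutrophil granules, read 59.5 and 1210 (4.63), Mpo, myeloperoxidase, read 32.3 and 541 (4.35) and Retnlg read 245 and 2248 (3.48). The 5 that stayed under 2-fold, named here after their values were seen, were Ly6g (0.42), Camp (0.18), Elane (0.05), Csf3r (0.04) and Itgam (-0.03), but Itgam, whose 3 probes disagreed, had 1.32 as a mean over probes, which made 8 past 2-fold. The count was 6 without scaling, with spike-in centring and with normexp. The summed scaled intensity of the list was 50.6 and 55.7, most of it from Csf3r, its brightest gene, at 42.6 and 44.0. Macrophage and leukocyte markers were at least 2-fold higher in 6 of 8 genes, 0 lower, with a median of 1.20 and a summed scaled intensity of 12.2 and 22.8. They were led by Lyz2 (2.35), Ptprc (1.51), Adgre1 (1.24) and Aif1 (1.22), and the brightest, Csf1r, had 0.67. Spike-in centring and no scaling each left 2 of these 8 past 2-fold. The part of keratinocytes, neutrophils and macrophages in the S100a8 and S100a9 results was not tested.

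Keratinocyte and dermal markers, read as a check of the tissue label, were bright on both arrays. Suprabasal keratinocyte markers had 0 of 7 genes past 2-fold and a median of 0.10, with Krt10 the brightest at 278000 and 262500 and the largest differences in Casp14 (0.74), Krt2 (-0.54), Dsg1a (0.35) and Lor (-0.30). Of 7 basal markers, Krt14 was at least 2-fold higher (1.35) and Krt15 at least 2-fold lower (-1.67), with a median of 0.15 and Krt5 the brightest (0.22). Fibroblast markers, which mark cells rich in S100a4 and S100a6, had 0 of 9 past 2-fold and a median of -0.17, with Fbn1 (-0.78) and Thy1 (-0.46) differing most and Col1a2 the brightest at 275500 and 201800. Markers of melanocytes, nerve and Schwann cells had 0 of 8 past 2-fold and a median of -0.26, led by Pmel (-0.44) and Dct (-0.38), the brightest. Endothelial markers had 0 of 5 past 2-fold and a median of 0.31, with Flt1 at 0.70. Under spike-in centring Krt14 was no longer past 2-fold, and the medians of the suprabasal, basal and endothelial lists were below 0, at -0.33, -0.29 and -0.12. Without scaling the suprabasal and basal medians were -0.18 and -0.14, and with quantile normalization the suprabasal median was -0.04 and the basal one just below 0. A mean over probes gave a basal median of -0.05 and 1 endothelial gene at least 2-fold higher. Of the fibroblast markers, 1 was at least 2-fold lower without scaling and under spike-in centring. With dermal genes such as Col1a2 this bright in both pools, the RNA is called skin here and not epidermis.

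The pools also differed in sex-linked genes, which were looked at after the data were seen. Xist was higher in Pnpla1-/- skin by 1.12 on the log2 scale, and the Y-linked Ddx3y and Eif2s3y had log2 differences of -2.19 and -2.19. The part of the sex of the pooled animals in the S100 results was not tested.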

How the data were processed

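Skin RNA of 6 Pnpla1+/+ and of 6 Pnpla1-/- newborns was pooled by genotype, labelled with Cy3 and hybridized to Agilent Mouse Gene Expression 4x44K v2 arrays, 1 per genotype. The authors deposited for each spot a linear intensity, background-subtracted by Feature Extraction (version 11.5.1.1 per the submitters' processing notes) and not scaled between arrays. The authors also deposited a table of ratios, found here to be that intensity divided by 1 factor per array (2109 and 1734, column medians 0.106 and 0.111, linear, not centred by gene). It was used as an alternative only.

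From the 43020 spots per array other than controls, each intensity was divided by the 75th percentile of its array and taken to log2 (Python 3.11.15, pandas 2.3.3, numpy 2.4.6). Spots flagged as outliers (138 and 82) were left out, repeated spots of a probe were averaged, and a gene was its brightest probe. Differences were taken for the 20680 genes that both arrays measured well above background, bounds for 1702 of the 1718 with 1 such array, and none for the 7735 others. Of 39429 probes, 31456 were matched to a gene table on GRCm38.p6, through its accession (27508), its symbol (3544) or a former symbol (404), and 7973 kept the name in the files. Probe coordinates are those of the files (mm9) and promoter windows are RefSeq's on GRCm38.p6. The mm9 and GRCm38.p6 coordinates are not to be compared.

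Genes were counted at 2-fold, bounds included, and no test was run, because the precision is limited by the number of arrays. The S100 genes, the gene lists and the motifs were chosen with earlier results of these data known. Named are all S100 genes with a probe, Pnpla1, the 4 genes of each list with the largest differences or fewer, its brightest gene and, where stated, genes chosen after their values were seen. Some lists hold the same gene (Cd14). A list's summed scaled intensity adds the genes' values over probes. The oxidase genes are given without a count or median for their list, since an item is not reported here. Flg had no probe under that symbol and is not analysed here, and protein sequences were not used here. As alternatives, the arrays were scaled by their median, by a 75th percentile that left out dim probes, by quantile normalization, by 8 E1A spike-in probes or not at all. Normexp background correction (offset 50) and quantile normalization used R 4.3.3 and limma 3.58.1. The deposited ratios, a mean over a gene's probes, 2 other filters on dim probes, the keeping of outlier-flagged spots, and thresholds of 1.5-fold and 3-fold were also tried. The computation was tested on simulated data.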

Additional observations from a re-analysis of the deposited data

How the results depend on the processing

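The 3 S100 genes at least 2-fold higher (S100a7a, S100a8 and S100a9) and S100a3, at least 2-fold lower, were called under every alternative that gave them a value, and no called difference changed sign. Where both arrays had to be well above background, S100a7a had no value, which left 2 genes higher. The count of members at least 2-fold lower rose to 2 with spike-in centring, which added S100a10, and 2 members were lower at a threshold of 1.5-fold. The median of the 10 members, 0.28, became 0.21 with scaling by the median, 0.17 with quantile normalization, -0.006 without scaling and -0.16 with spike-in centring. The median of all genes shifted by -0.28 without scaling and by -0.44 with spike-in centring, in which the 8 spike-in probes had been 0.43 higher in Pnpla1-/- after the 75th percentile scaling, and by 0.10 without the filter on dim probes.

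Over all genes, 1499 were at least 2-fold higher and 681 lower. These counts were 998 and 1424 without scaling, 827 and 2178 with spike-in centring, 960 and 321 with normexp, 3041 and about 1.1e+03 with no filter on dim probes, 3093 and 2092 at 1.5-fold and 684 and 228 at 3-fold. The higher genes made up 68.8% of those past 2-fold, 41.2% without scaling, 27.5% with spike-in centring, and 58.8% with quantile normalization. Which scaling comes closest to the RNA content of the tissue was not tested. No paired analysis was possible because each genotype had 1 array, and a difference between mice cannot be told apart from one between genotypes. S100a7a, S100a2, S100a5, S100g and S100z were too dim for small differences to be measured, and S100a7l2 was below the background limit on both.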
